A study of Mus musculus with 5 samples.

Results

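The 8 genes described here, T (also T/Bra), Tbx6, Msgn1, Mixl1, Mesp1, Eomes, Evx1 and Lhx1, encode transcription factors of the primitive streak and of the mesoderm that has just left it. They were taken by symbol from the 32285 genes counted in all 5 libraries, and each symbol matched 1 gene. Mouse epiblast stem cells (EpiSCs), a wild-type line of 129 background cultured from the post-implantation epiblast, had been differentiated for 3 days in N2B27 medium. Every culture received 1 µM of the Wnt pathway agonist Chi (CHIR99201 in the labels) and 8 ng/ml BMP4. The 5 cultures differed in FGF signaling. They received no FGF2, 0.75, 3 or 12 ng/ml FGF2, or 30 nM of the FGF receptor inhibitor AZD4547 (FGFRi), for which no FGF2 dose is stated, so that whether FGF2 was present beside the inhibitor is not given in the sources used here. A single 10x Genomics library was sequenced per culture. Differences between libraries therefore carry no estimate of the spread between cultures, and no test between conditions was run.

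In the gastrulating embryo, epiblast cells enter the primitive streak, lose their epithelial character and move out as mesoderm. T, a T-box factor, marks the streak and the nascent mesoderm and is needed for posterior mesoderm to form. Eomes, another T-box factor, acts early in the streak and its anterior derivatives, whereas Tbx6, a T-box factor, and Msgn1, a bHLH factor, mark the presomitic mesoderm and favor paraxial over neural fates. Mesp1, a bHLH factor, marks the first mesoderm to leave the streak, including the precursors of the heart. Mixl1, Evx1 and Lhx1 are homeobox factors, known from the whole streak, from its posterior part, and from anterior and lateral mesoderm. FGF signaling is known to be required for T and Tbx6 expression and for cells to leave the streak.

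The files hold counts of unique molecular identifiers (UMIs, which count each captured RNA molecule once) per gene and cell barcode. Barcodes with at least 2500 genes and at most 10% mitochondrial UMIs were retained, 10653 of 15375 in all and between 1696 and 2725 per library, with a median of 24408 to 29661.5 UMIs per cell. Between 2 and 4 retained barcodes per library also occurred in another library. Levels are UMIs summed over retained cells per 1000000 UMIs of the library (CPM) with exact Poisson 95% intervals, ratios have exact conditional 95% intervals, and shares of cells have exact binomial 95% intervals. All of these cover counting error only. Where 0 UMIs or 0 positive cells were found, the limit given is instead the level or share that 3 would give. This limit is lower than the upper end of the exact interval. Because reads come from the 3′ ends of transcripts, levels are compared between libraries and not between genes. The cells are labelled by the EpiSC line from which they came. The levels of the epiblast markers over the libraries ran from 1.74 to 11.3 CPM for Pou5f1, 0.460 to 2.03 for Nanog and 0.155 to 1.40 for Fgf5. They ran from 1.86 to 7.43 CPM for Utf1 and 3.03 to 5.08 for Pim2. Dnmt3b and Sox2, which other tissues also express, ran from 31.1 to 63.4 and from 15.1 to 34.7 CPM. Otx2 was at 12.0 CPM with the FGFRi and at 1.56 to 2.57 CPM along the FGF2 doses.

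The genes lie on GRCm38 (GENCODE vM21) in 7 chromosomes. T lies at chr17:8434423-8442496 on the plus strand, Tbx6 at chr7:126781483-126785560 on the plus strand and Eomes at chr9:118478212-118486132 on the plus strand. Msgn1, with 1 exon, lies at chr12:11208360-11208972 on the minus strand and Mesp1 at chr7:79792241-79793788 on the minus strand. Mixl1 lies at chr1:180693043-180697034 on the minus strand, Evx1 at chr6:52313498-52318378 on the plus strand and Lhx1 at chr11:84518284-84525535 on the minus strand. Eomes overlaps the antisense gene Gm33460 and Evx1 the antisense gene Evx1os, and whether the counting used strand is not given in the sources used here. Promoter sequences came from RefSeq (GRCm38.p6), which held an entry for 7 of the 8 genes. The 250 bases upstream of the start were searched on both strands for a TCF/LEF core (CTTTGA), a T-box core (AGGTGT), a CDX core (TTTATG) and an ETS core (CGGAAG), none of which overlapped another match. The TCF/LEF core was found in 3 of the 7 promoters against 13.8% of 32851 background promoters from the same source. The T-box core was found in 3 against 11.8%, the CDX core in 2 against 10.8% and the ETS core in 0 against 13.6%. This background left out 1 chromosome, which holds none of the 8 genes. GENCODE places 198 of the 250 Mesp1 bases within the transcript, including both Mesp1 matches of the TCF/LEF core, so that this core was found outside the transcript in 2 of the 7. The promoters of T, Msgn1 and Tbx6 are shown as those of the gene with the most UMIs and of the pair whose levels followed each other most closely across libraries. Capitals mark the motifs, and the last 24 bases of the Msgn1 window were left out because GENCODE places them within the transcript.
T promoter (chr17:8434173-8434422, plus strand): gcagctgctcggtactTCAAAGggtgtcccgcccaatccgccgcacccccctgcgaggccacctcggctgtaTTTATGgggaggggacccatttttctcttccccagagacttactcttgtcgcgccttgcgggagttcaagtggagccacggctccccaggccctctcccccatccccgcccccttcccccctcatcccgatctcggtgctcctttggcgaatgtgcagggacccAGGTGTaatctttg
Msgn1 promoter (chr12:11208973-11209198, minus strand): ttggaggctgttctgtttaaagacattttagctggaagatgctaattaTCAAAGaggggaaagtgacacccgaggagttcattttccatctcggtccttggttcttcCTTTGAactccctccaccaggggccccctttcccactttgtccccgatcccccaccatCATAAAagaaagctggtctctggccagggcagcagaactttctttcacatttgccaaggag
Tbx6 promoter (chr7:126781233-126781482, plus strand): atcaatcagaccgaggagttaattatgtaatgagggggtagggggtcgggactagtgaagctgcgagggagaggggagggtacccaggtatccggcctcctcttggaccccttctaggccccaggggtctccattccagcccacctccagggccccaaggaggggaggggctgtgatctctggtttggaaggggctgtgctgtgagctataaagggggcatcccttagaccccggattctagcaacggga
In the T promoter, the TCF/LEF match began 234 bases, the CDX match 178 bases and the T-box match 14 bases upstream of the start. In the Msgn1 promoter, TCF/LEF matches began 202 and 143 bases upstream and a CDX match 85 bases upstream. The Tbx6 window held none of these letter strings. These matches describe the letters only and were not tested for binding.

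All 8 genes were at higher levels with 12 ng/ml than with 0 ng/ml FGF2, by between 2.84-fold for Evx1 and 15.02-fold for Mixl1. A gene was called higher or lower where its level differed by at least 2-fold between libraries and reached at least 5 CPM in either of them. From 0 to 12 ng/ml, 6 of the 6 genes that reached 5 CPM were called higher, where 2.23% of 9931 genes were. In this comparison, Mixl1, Mesp1 and Lhx1, at 1.94, 1.58 and 1.60 CPM with 0 ng/ml, reached 5 CPM only in the 12 ng/ml library. Their calls thus followed from the minimum, whereas T, Tbx6 and Evx1 reached it at both doses. Msgn1 and Eomes did not reach 5 CPM in any library and were never called. From the FGFRi to the 12 ng/ml library 6 of 6 were called higher, where 8.37% of all genes were, and none of the 8 genes was called lower in these comparisons, where 4.69% and 13.5% of all genes were. With the FGFRi, however, all 8 genes were at 2.11 CPM or less. A gene that reached 5 CPM at 12 ng/ml was therefore always called higher, so that the minimum fixed the counts of this comparison. The median change from 0 to 12 ng/ml on the scale of log2(CPM + 1) was 2.59 over the 8 genes and 0.01 over all genes tested.

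The steps of the series were unequal. From FGFRi to 0 ng/ml, 3 of 3 genes that could be called were higher (T, Tbx6 and Evx1), against 2.98% of all genes, and none was lower, against 6.07%. In this step, these 3 genes, at 0.753, 0.230 and 1.15 CPM with the FGFRi, reached 5 CPM only in the 0 ng/ml library. Their calls, and the absence of lower ones, thus followed from the minimum. From 0 to 0.75 ng/ml, 4 of 5 were called higher (T, Mixl1, Mesp1 and Evx1), against 0.347%, and none lower, against 1.67%. The calls of Mixl1 and Mesp1, at 1.94 and 1.58 CPM with 0 ng/ml, again followed from the minimum. From 0.75 to 3 ng/ml, 4 of 6 were called higher (T, Tbx6, Mixl1 and Lhx1), against 0.39%, and none lower, against 0.729%. In this step, Lhx1, at 3.20 CPM with 0.75 ng/ml, reached the minimum only in the 3 ng/ml library and could not have been called lower. From 3 to 12 ng/ml 0 of 6 were called in either direction, against 0.0725% in each. The values nearest to the limit from 0 to 0.75 ng/ml were Evx1 with a ratio of 2.05, which was called, and Tbx6 with 1.96, which was not. On the log2 scale, where 1 is the limit, Evx1 was at 0.96 without the 10% of cells with most UMIs and at 0.94 with every cell given the same weight, which ends its call. Tbx6 was at 1.04, past the limit, with at most 5% mitochondrial UMIs.

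**Figure D1:**
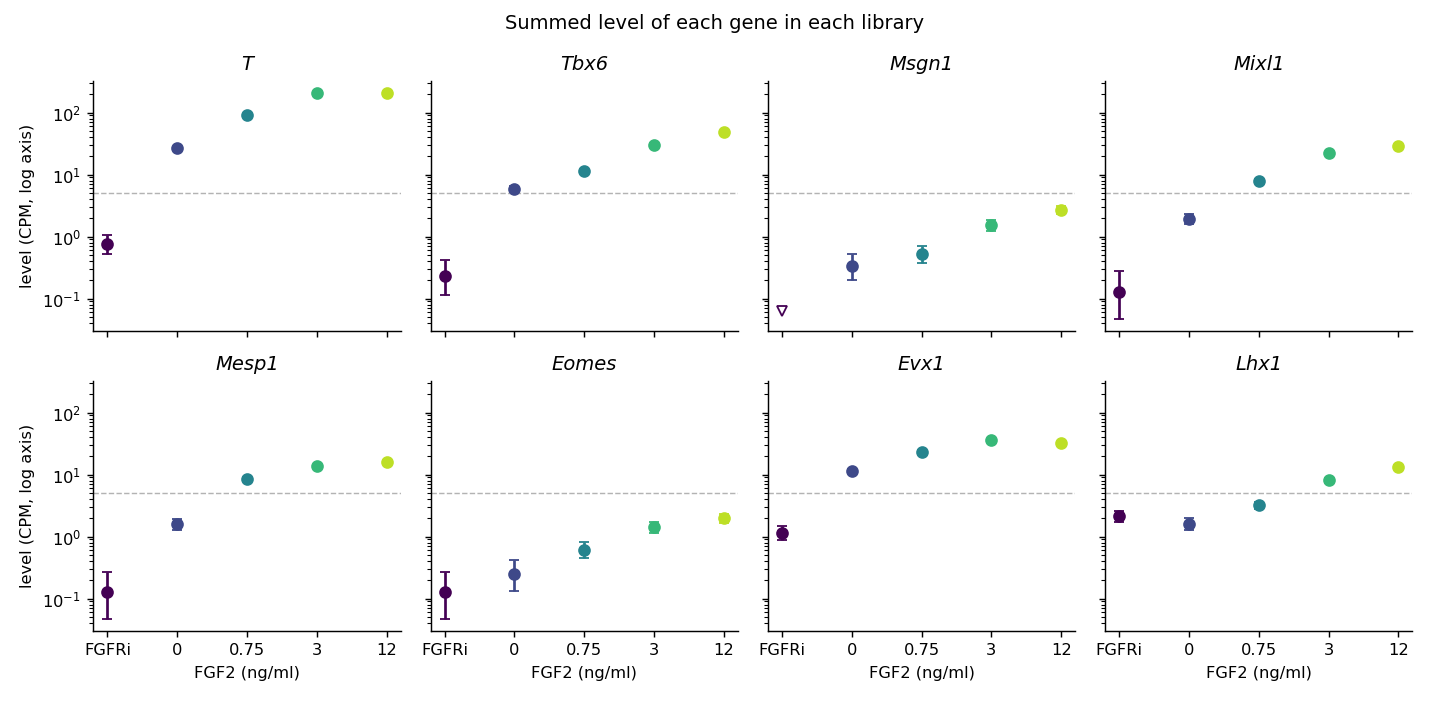
Level of each of the 8 genes in each library (CPM, log axis), with exact Poisson 95% intervals for counting error, against the FGF2 dose or FGFRi. The open triangle for Msgn1 stands at the level that 3 UMIs would give because the FGFRi library held 0, the dashed line marks 5 CPM, and all genes but Lhx1 were lowest in the FGFRi library.

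Levels of each gene are given in the order FGFRi, then no FGF2, then 0.75, 3 and 12 ng/ml FGF2. T was nearly absent with the FGFRi and was at nearly the same level with 3 and 12 ng/ml FGF2. It stood at 0.753 (0.527 to 1.04), 26.7, 92.7, 205 (201 to 208) and 208 (205 to 212) CPM. The ratio was 35.4 (25.5 to 50.8) from FGFRi to 0 ng/ml, 3.47 (3.29 to 3.67) from 0 to 0.75 ng/ml and 2.21 (2.15 to 2.27) from 0.75 to 3 ng/ml. Between 3 and 12 ng/ml it was 1.02 (0.994 to 1.04), an interval that includes 1.

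Tbx6, in contrast, was still higher at 12 ng/ml than at 3 ng/ml. The 5 libraries held Tbx6 at 0.230 (0.115 to 0.412), 5.86, 11.5, 30.4 (29.1 to 31.8) and 49.0 (47.4 to 50.7) CPM. The last step had a ratio of 1.61 (1.52 to 1.70), below the limit for a call but with an interval that does not overlap that of T.

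Eomes was at the edge of detection throughout. Its 6, 14, 50, 92 and 140 UMIs gave levels of 0.125, 0.246, 0.613, 1.42 and 1.98 CPM. The ratio from FGFRi to 0 ng/ml was 1.96 (0.709 to 6.24), an interval that includes 1, and from 0 to 12 ng/ml it was 8.03 (4.63 to 15.1), or 3.00 on the log2 scale, which became 2.34 without the 10% of cells with most UMIs in each library. These few UMIs sat in few cells, with 18 of the 50 UMIs at 0.75 ng/ml in 1 cell and 50% of those at 12 ng/ml in 7 cells.

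Msgn1 followed the order of Tbx6 at lower counts. The FGFRi library held 0 UMIs, which allows up to 0.0627 CPM, and the levels along the doses were 0.334, 0.515, 1.53 and 2.66 CPM. The level at 12 ng/ml was at least 42.3-fold higher than with the FGFRi, taking 3 UMIs for the latter. From 0 to 0.75 ng/ml the ratio was 1.54 (0.876 to 2.80), which does not separate these libraries, and from 3 to 12 ng/ml it was 1.73 (1.35 to 2.23).

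Mesp1 had its largest ratio between FGF2 doses at the lowest step. The levels were 0.125 (6 UMIs), 1.58, 8.38, 13.5 and 15.9 CPM. The ratio was 5.29 (4.24 to 6.66) from 0 to 0.75 ng/ml, 1.62 (1.46 to 1.79) from 0.75 to 3 ng/ml and 1.18 (1.08 to 1.29) from 3 to 12 ng/ml. At 3 ng/ml a single cell held 62 of the 874 Mesp1 UMIs.

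Mixl1 showed the largest ratio over the FGF2 doses among the 8 genes. Its levels were 0.125 (6 UMIs), 1.94, 7.82, 21.96 and 29.1 CPM, each above the one before. From 0 to 12 ng/ml the ratio was 15.02 (12.4 to 18.4), and from 3 to 12 ng/ml it was 1.32 (1.24 to 1.42).

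Evx1 differed least between FGF2 doses and was the only gene of the 8 that was lower at 12 than at 3 ng/ml. The series ran 1.15, 11.5, 23.5, 35.8 (34.3 to 37.2) and 32.6 (31.3 to 34.0) CPM. The ratio from 3 to 12 ng/ml was 0.912 (0.861 to 0.967).

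Lhx1 was the only gene of the 8 that was not lowest with the FGFRi. Its levels were 2.11 (1.72 to 2.57), 1.60 (1.29 to 1.97), 3.20, 8.03 and 13.4 CPM, so that the first 2 libraries overlapped in their intervals and each later one was higher than the one before. The ratio from FGFRi to 0 ng/ml was 0.758 (0.565 to 1.02), which includes 1, and from 3 to 12 ng/ml it was 1.67 (1.501 to 1.87). From 0 to 12 ng/ml the ratio was 8.39 (6.76 to 10.52), or 3.07 on the log2 scale, which became 2.41 without the 10% of cells with most UMIs in each library.

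The share of positive cells and the UMIs per positive cell were then read separately. For this, cells were thinned to 10000 UMIs each, which left out 94 cells that were shallower, 39 of them in the FGFRi library. In the same order of libraries, the share of cells with a T UMI was 0.602%, 13.9% (12.3 to 15.6), 33.6% (31.8 to 35.4), 59.3% (57.2 to 61.4) and 65.1% (63.2 to 67.03), and without thinning 1.29%, 24.6%, 47.4%, 74.5% and 82.2%. T-positive cells held a mean of 1.89, 2.66, 3.29 and 3.06 UMIs along the doses, and 3.64, 5.85, 8.35 and 7.46 without thinning. A positive cell holds at least 1 UMI by definition, so that at a low depth most of a difference in mean UMIs per cell must appear in the share, and the division between share and level depends on the depth. On the log2 scale, the share of T-positive cells was higher by 2.23 and the level within them by 0.69 from 0 to 12 ng/ml, and by 1.74 and 1.04 without thinning. From 0.75 to 3 ng/ml these differences were 0.82 and 0.31, and 0.65 and 0.51 without thinning.

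The share of Tbx6-positive cells was 0.241%, 4.17% and 8.68% up to 0.75 ng/ml, 423 of 2115 cells at 3 ng/ml and 30.7% (28.9 to 32.6) at 12 ng/ml, and 0.647%, 7.96%, 16.0%, 36.1% and 49.7% without thinning. Tbx6-positive cells held a mean of 1.34 to 1.65 UMIs along the FGF2 doses, near the lowest possible value of 1, and 2.15 to 2.90 UMIs without thinning. The share of Evx1-positive cells was 1.08%, 10.3%, 19.2%, 26.8% and 25.7% (2.76%, 23.1%, 39.96%, 56.0% and 52.1% without thinning), with 1.18 to 1.26 UMIs per positive cell along the doses. For Mixl1 it was 0.0602%, 1.31%, 4.92%, 11.9% and 14.9% (0.353%, 3.89%, 10.3%, 23.7% and 28.6% without thinning). For Mesp1 it was 0.120%, 1.19%, 4.40%, 7.90% and 8.22% (0.294%, 2.59%, 8.70%, 15.2% and 15.4%), and for Lhx1 1.93%, 1.19%, 2.22%, 4.59% and 7.13% (3.17%, 3.13%, 4.81%, 9.13% and 13.5%). The Mesp1 intervals at 3 ng/ml (6.78 to 9.13%) and 12 ng/ml (7.15 to 9.39%) overlapped. Msgn1 was detected in 0 of 1662 FGFRi-treated cells, which allows a share of up to 0.181%, and in 0.119%, 0.443%, 1.70% and 2.21% of cells along the doses (0.767%, 1.47%, 4.42% and 6.61% without thinning). Eomes was detected in 0.120% to 0.834% of cells (0.294% to 1.58% without thinning), and its intervals at neighboring conditions overlapped in all steps.

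**Figure D2:**
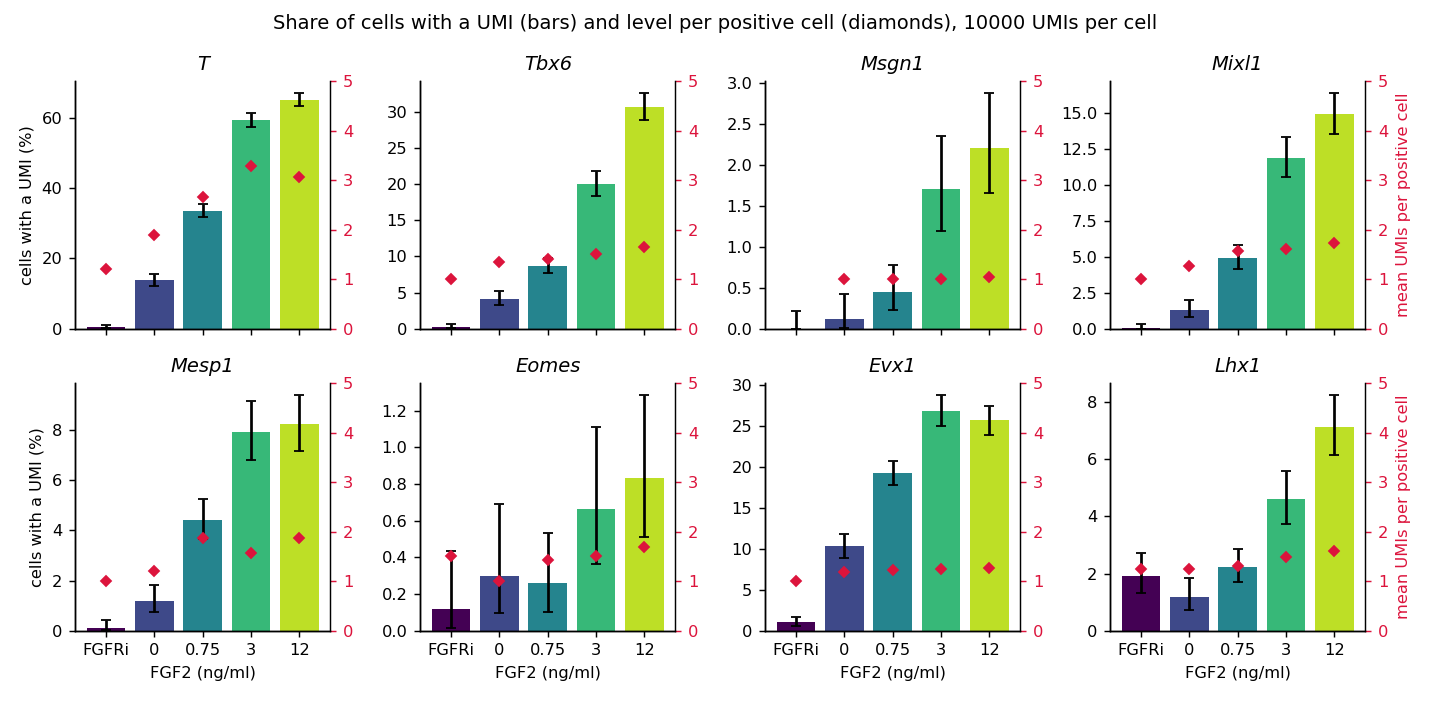
Share of cells with at least 1 UMI of each gene (bars, left axis, %) with exact binomial 95% intervals, and mean UMIs per positive cell (red diamonds, right axis), by FGF2 dose or FGFRi, in cells thinned to 10000 UMIs. The left axes differ between genes, and the mean per positive cell stays between 1 and 2 UMIs for all genes except T, which reaches 3.29.

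To see what free RNA in the droplets could add, shares were read in cells with at least 3 of 8 surface ectoderm markers detected. The markers were Tfap2a, Tfap2c, Krt7, Krt19, Grhl2, Grhl3, Dlx5 and Wnt6. The 8 genes described here are not known to act in surface ectoderm, but whether these cells were surface ectoderm was not tested. These numbered 476 cells with the FGFRi and 432, 701, 265 and 151 along the FGF2 doses, or 28.6%, 25.7%, 25.9%, 12.5% and 6.30% of cells. Their median depth was 23967 to 28400 UMIs, against 24829.5 to 30185 UMIs in the other cells. With the FGFRi, T was detected in 0 of 476 of them, which allows a share of up to 0.630%, and along the doses in 3.24%, 8.56%, 18.9% and 27.2%, against 0.843%, 17.6%, 42.3%, 65.1% and 67.7% of the other cells. Of the 151 ectoderm-marker cells at 12 ng/ml, 102 had exactly 3 markers, and in the 49 cells with at least 4 the T share was 16.3%. In the 12 ng/ml library, Tbx6 was detected in 2.65% of the ectoderm-marker cells and 32.6% of the others, Evx1 in 12.6% and 26.5%, Mixl1 in 1.32% and 15.8%, and Lhx1 and Mesp1 in 0 of 151 (up to 1.99%) and in 7.61% and 8.77%. The shares of the genes thus did not keep 1 ratio between the 2 groups of cells, and the part of free RNA in the T and Evx1 counts of ectoderm-marker cells was not tested. With the FGFRi, Tbx6 was found in 1 of 476 ectoderm-marker cells (0.210%, interval 0.00532 to 1.16%) and in 3 of 1186 others (0.253%). These are too few cells to compare the shares. Lhx1 was found in 0.840% of the ectoderm-marker cells and 2.36% of the others, and Evx1 in 0 of 476 and in 1.52%.

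With the FGFRi, positive cells were few and mostly carried 1 UMI. T was found in 22 cells with 36 UMIs in all, at most 5 in a cell, and Evx1 in 47 cells with 55 UMIs, counting without thinning. Tbx6 was found in 11 cells with 1 UMI each, of which 1 barcode also occurred in another library. Mixl1 was found in 6 cells with 1 UMI each, and Mesp1 and Eomes in 5 cells each. Lhx1 differed from these, with 101 UMIs in 54 cells and up to 10 UMIs in a cell. After thinning, the 32 Lhx1-positive cells had Cdh1, the epithelial cadherin, in 9.38% (1.98 to 25.02) against 41.4% of the other FGFRi-treated cells, and Twist1, a factor of mesenchymal cells, in 59.4% (40.6 to 76.3) against 34.1%. These 2 genes were chosen after their values had been seen, from a list of 10 genes of epithelial-mesenchymal transition. The others of that list are not given here, so that the type of these cells was not determined.

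Within the libraries with FGF2 doses, at least 3 of the 8 genes were found together in more cells than independent detection would give. Any of the 8 genes was detected in 3.91% of cells with the FGFRi and in 23.3%, 46.9%, 73.1% and 83.0% along the doses. At least 3 of them were detected in 0 of 1662 cells with the FGFRi (up to 0.181%) and in 1.61% (1.06 to 2.33), 5.88% (5.02 to 6.83), 14.99% (13.5 to 16.6) and 18.4% (16.9 to 20.01) along the doses. Independent detection at the same shares would give 0.166%, 1.86%, 10.1% and 15.5% along the doses. The observed share was higher than this by 1.44, 4.01, 4.92 and 2.93 percentage points, largest at 3 ng/ml, while the ratio of the observed to the independent share was 9.71, 3.16, 1.49 and 1.19. The highest value that this ratio can take falls as the independent share rises, so that its fall along the doses cannot be read alone. Doublets were not removed, and their part in the observed shares was not tested. The highest number in a cell was 2, 4, 5, 6 and 6 of 8 from the FGFRi to 12 ng/ml.

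**Figure D3:**
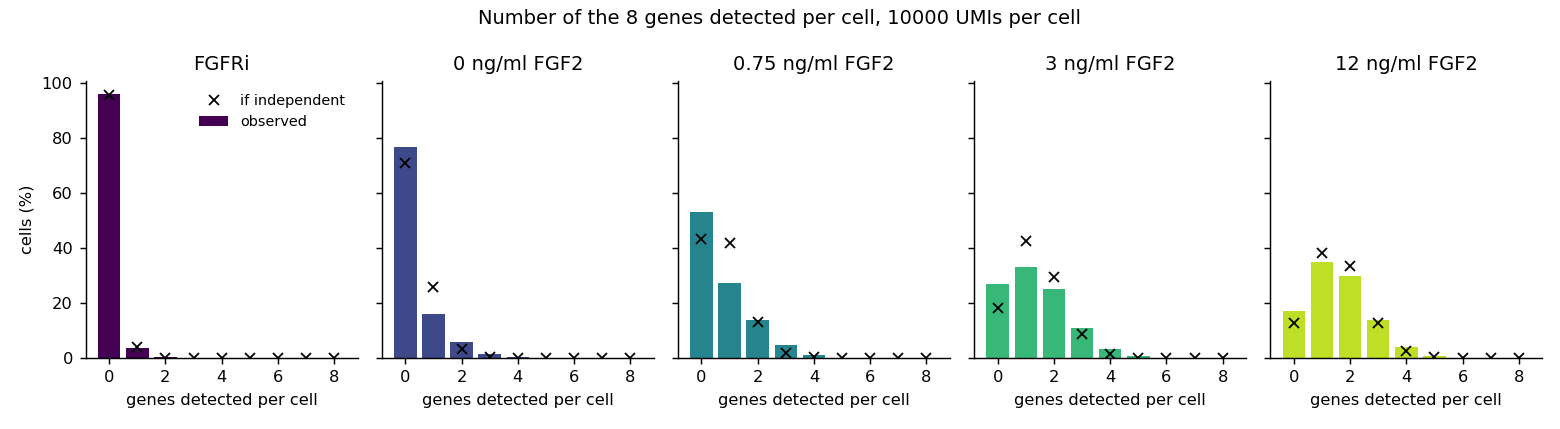
Share of cells (%) by the number of the 8 genes detected per cell, for each library after thinning to 10000 UMIs. Bars give the observed shares and crosses the shares expected if the genes were detected independently at their single shares, and at 0.75 ng/ml 5.88% of cells had at least 3 genes against 1.86% expected.

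The co-detection ratio sets the number of cells with both genes of a pair over the number expected from both shares, for pairs with at least 5 cells expected. Its median was 2.71 over 3 pairs at 0 ng/ml, 1.91 over 13 pairs at 0.75 ng/ml, 1.36 over 19 pairs at 3 ng/ml and 1.18 over 22 pairs at 12 ng/ml. The pairs differ between libraries, and the ratio has a ceiling that falls as genes become common. For a pair that includes T, the ceiling was 7.21 at 0 ng/ml and 1.54 at 12 ng/ml. All cells of a library came from 1 culture, so that these are descriptions of that library.

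T and Tbx6, which mark the streak and the presomitic mesoderm, showed such a fall in the ratio. Both were detected in 36, 151, 299 and 487 cells along the FGF2 doses, with ratios of 3.71, 1.91, 1.19 and 1.02. T was found in 51.4%, 64.3%, 70.7% and 66.2% of Tbx6-positive cells along the doses, against 12.2%, 30.7%, 56.5% and 64.7% of Tbx6-negative cells. Without thinning, the difference at 12 ng/ml was present, with T in 89.8% of Tbx6-positive and 74.6% of Tbx6-negative cells. The small difference at 12 ng/ml therefore depends on the depth at which cells were called positive. Without thinning, cells also differ from each other in depth, which by itself raises co-detection. The part of this in the difference was not tested.

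Cells were then split by their T level from all of their UMIs, with Tbx6 read after thinning, a split chosen after the data had been seen. In this split, Tbx6 was found least often in cells with no T UMI at 0, 0.75 and 3 ng/ml FGF2. It was found most often in cells with intermediate T levels, and at 12 ng/ml the highest T class was as low as the cells with none. In this library, Tbx6 was detected in 19.2% (15.6 to 23.3) of 426 cells with no T UMI, in 40.0% (36.1 to 44.1) of 607 cells below 100 CPM of T, in 37.6% (34.2 to 41.0) of 809 cells from 100 to below 300 CPM and in 19.3% (16.1 to 22.8) of 555 cells with 300 CPM or more. At 3 ng/ml the shares were 7.99%, 28.6%, 27.3% and 16.2%. At 0.75 ng/ml they were 2.19%, 17.1%, 17.4% and 9.96%. At 0 ng/ml they were 0.632%, 11.7%, 21.6% and 16.0%, with 25 cells in the highest class. The highest T class thus had a lower Tbx6 share than the class below it in each library. The intervals of these classes did not overlap at 3 and 12 ng/ml, and overlapped at 0 ng/ml and, by a small margin (6.55 to 14.4% against 14.0 to 21.2%), at 0.75 ng/ml.

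Mixl1, by contrast, was found more often at higher T levels in the split by T level from all UMIs. The intervals of its upper 2 classes overlapped at 0, 3 and 12 ng/ml but not at 0.75 ng/ml. Its share at 12 ng/ml was 2.82% with no T UMI and 12.2% below 100 CPM. It was 18.8% (16.2 to 21.7) from 100 to below 300 CPM and 21.4% (18.1 to 25.1) with 300 CPM or more. At 0.75 ng/ml it was 0.777%, 2.56%, 11.9% and 21.1%. The median depth of the cells in these 4 classes lay between 25997.5 and 28150 UMIs at 12 ng/ml. With T and Mixl1 both read at 10000 UMIs, the Mixl1 share at 12 ng/ml was 9.21% in cells with 0 T UMIs and 21.6% in cells with 5 or more.

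**Figure D4:**
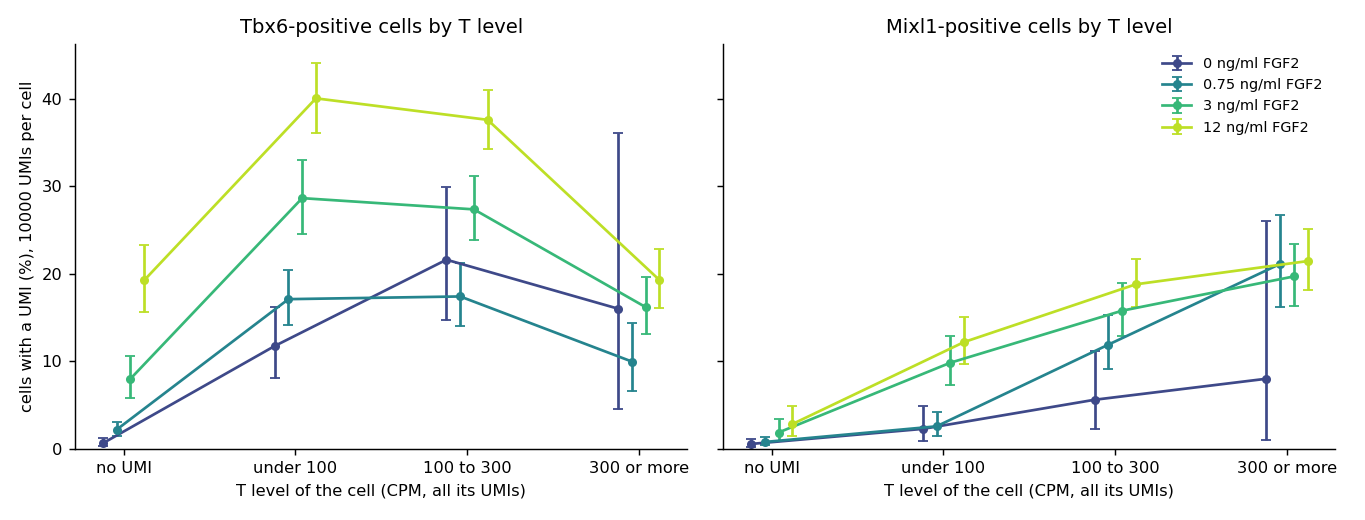
Share of cells (%) with a Tbx6 UMI (left) or a Mixl1 UMI (right), read at 10000 UMIs per cell, by the T level of the cell in CPM from all of its UMIs, for the 4 FGF2 doses, with exact binomial 95% intervals. At 12 ng/ml the Tbx6 share is 40.0% below 100 CPM and 19.3% at 300 CPM or more, while the Mixl1 share is 12.2% and 21.4%.

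Some other pairs were still found together more often than expected at 12 ng/ml. Mesp1 and Lhx1 were found together in 40 cells where 14.1 were expected, a ratio of 2.85, and at 3 ng/ml the ratio was 3.13. Mixl1 and Lhx1 shared 53 cells where 25.5 were expected (2.08), and Tbx6 and Msgn1 shared 32 where 16.3 were expected (1.97). Tbx6 was found in 60.4% of the Msgn1-positive cells and 30.0% of the others. Tbx6 and Evx1 had a ratio of 0.895 at 12 ng/ml and of 2.50, 1.29 and 1.12 at 0, 0.75 and 3 ng/ml. The interval of their joint share included the expected share at 0.75, 3 and 12 ng/ml (6.06 to 8.15% against 7.88% at 12 ng/ml). It did not at 0 ng/ml. Without thinning, 643 cells had both genes at 12 ng/ml where 623 were expected.

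At 12 ng/ml, Eomes was found with Lhx1 more often, and with Tbx6 less often, than independent detection would give. In that library, 0 of the 20 Eomes-positive cells had a Tbx6 UMI after thinning, where 6.14 were expected. Without thinning, Tbx6 was found in 12 of 38 Eomes-positive cells where 18.9 were expected, so that the 2 genes were not exclusive. Lhx1 was found in 25 of these 38 cells where 5.15 were expected, and Mixl1 in 23 where 10.9 were expected. After thinning, which sets cells to the same depth, Lhx1 was found in 10 of the 20 cells where 1.43 were expected. Mixl1 was found in 9 of them where 2.98 were expected. In the 3 ng/ml library, Eomes and Tbx6 shared 3 cells where 2.80 were expected after thinning and 8 where 11.9 were expected without it, so that a lower number was not seen there after thinning.

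**Figure D5:**
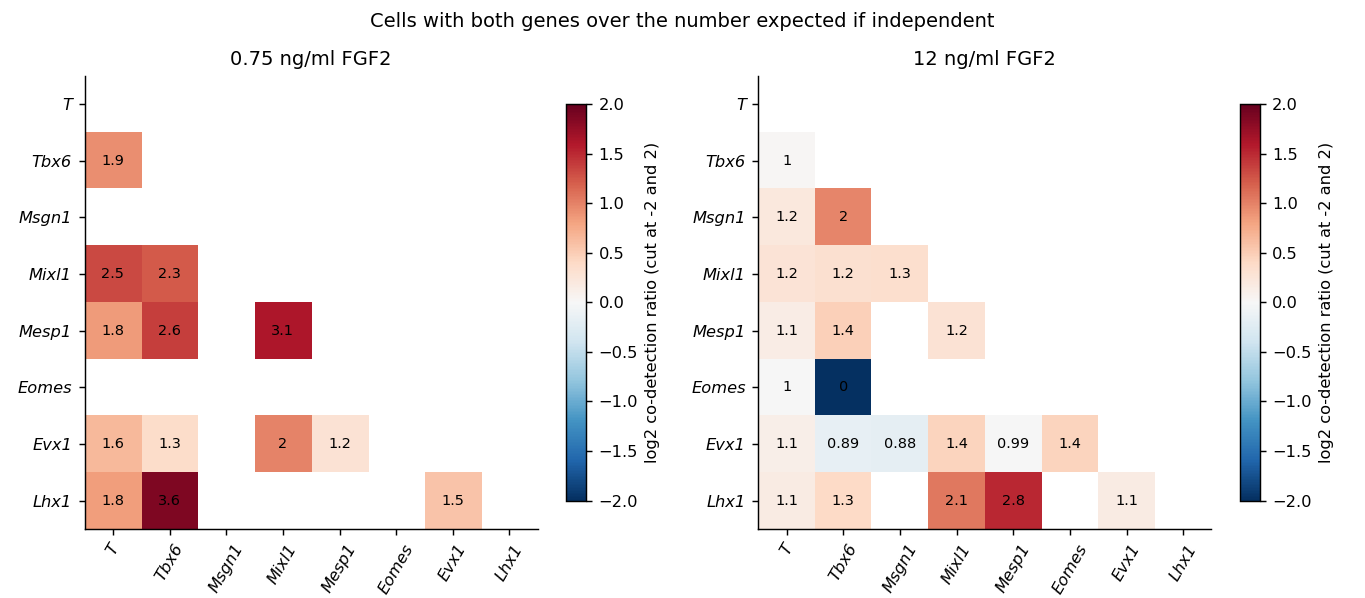
Co-detection ratio of each pair of genes (number in the cell; color gives its log2, cut at -2 and 2) at 0.75 and 12 ng/ml FGF2, in cells thinned to 10000 UMIs. Blank pairs had fewer than 5 cells expected, and the pair of T and Tbx6 is at 1.91 on the left and 1.02 on the right.

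Among the genes of 13 tissue and signal lists, those with the highest co-detection ratios with each factor at 12 ng/ml differed between factors. T-positive cells had the highest ratios for Wnt3a (1.38), a Wnt ligand of the streak, Foxa2 (1.34, in 14 cells where 10.4 were expected) and Prdm14 (1.34). Wnt3a was found in 14.9% of T-positive and 3.11% of T-negative cells. Tbx6-positive cells had the highest ratios for Dll1 (1.83), a Notch ligand of the presomitic mesoderm, Osr1 (1.79) and Pdgfra (1.72), with Dll1 in 65.1% of them and 22.4% of the others. Msgn1-positive cells were led by Pdgfra (2.03), Dll3 (1.80) and Dll1 (1.70).

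Mesp1- and Lhx1-positive cells were both led by Foxf1, a factor of lateral plate mesoderm, with ratios of 2.43 and 2.68. It was found in 11.7% of Mesp1-positive and 12.9% of Lhx1-positive cells, against 4.18% of the other cells in either case. Smarcd3 (2.21) and Hand1 (2.02) followed for Mesp1, and Wnt3 (2.26) and Snai1 (2.20), a repressor of the epithelial cadherin, for Lhx1. Mixl1 was led by Cyp26a1 (1.61), Pou5f1 (1.57) and Pdgfra (1.54). Evx1 was led by Osr1 (1.91), Snai2 (1.499) and Otx2 (1.47, in 14 cells where 9.49 were expected).

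The cadherin state of the positive cells was examined after its values had been seen, in thinned cells. Cdh1 was detected at 12 ng/ml in 6.52% (4.85 to 8.55) of Tbx6-positive cells against 30.4% of the others, and in 20.7% (18.7 to 22.8) of T-positive cells against 27.5% of the others. For Msgn1, Mesp1, Lhx1, Mixl1 and Evx1 the shares with Cdh1 were 3.77%, 11.2%, 12.9%, 14.8% and 17.7%. Along the doses, Cdh1 was found in 16.7%, 20.2%, 18.9% and 20.7% of T-positive cells and in 52.4%, 48.9%, 35.5% and 27.5% of T-negative cells. The share among T-positive cells thus moved within 4 points while that among T-negative cells was lower at each higher dose. Cdh2, the mesenchymal cadherin, was found in 58.4%, 61.7%, 66.3% and 66.7% of T-positive and 26.7%, 28.2%, 40.5% and 49.9% of T-negative cells. After thinning, 1446 cells at 0 ng/ml and 836 at 12 ng/ml were T-negative. Of the same cells, 1265 and 426 had no T UMI among all of their UMIs. T-negative cells thus included more cells with T RNA at 12 ng/ml, and the part of these in the cadherin shares was not tested.

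Across libraries, the genes whose levels followed each factor most closely were found by the share that each library takes of a gene's summed CPM, over 8761 genes with at least 10 CPM in a library and with 5 points each. The measure is 0% for the same pattern. T was nearest to Fgf8 (1.36%) and Fgf3 (3.08%), both FGF ligand genes. Fgf8 stood at 2.43, 24.5, 72.3, 156 and 160 CPM from the FGFRi to 12 ng/ml. Tbx6 was nearest to Dll3 (2.33%) and Fabp7 (2.57%), and Msgn1 to Tbx6 (2.80%) and Fabp7 (3.43%). Mixl1 was nearest to Arl4d (1.56%) and Aplnr (3.62%), Mesp1 to Alox15 (3.20%) and Psmb8 (3.54%), and Eomes to Dll1 (1.78%) and Peli3 (2.89%). Evx1 was nearest to Hoxb7 (2.74%) and Amph (2.88%), and Lhx1 to Isg15 (3.79%) and Inka1 (3.95%). Among the 8 genes, the most alike pair was Tbx6 and Msgn1 (2.80%) and the least alike Evx1 and Lhx1 (22.5%). The measure carries no interval for counting error. Msgn1 rests on 0 to 188 UMIs per library and Eomes on 6 to 140, so that their ranks are uncertain.

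Other genes of the streak and its derivatives were counted from 0 to 12 ng/ml by the same rule, which called 2.23% of all genes higher and 4.69% lower. Of the libraries with 0 and 12 ng/ml, a gene that reached 5 CPM only in the latter, such as Fgf4 (0.669 CPM at 0 ng/ml), could not be called lower. Likewise, a gene that reached it only in the former could not be called higher. Of the 8 streak signals that reached 5 CPM, 6 were higher and 0 lower, with Fgf4 by 2.73, Fgf3 by 2.71 and Fgf8 by 2.66 on the scale of log2(CPM + 1). Of 5 presomitic mesoderm genes 4 were higher (Dll1 by 2.80, Dll3 by 2.64 and Rspo3 by 2.20), and of 6 caudal epiblast genes 3 were higher (Hoxb1 by 2.12, Cyp26a1 by 1.82 and Sp5 by 1.504). The medians of these 3 lists were 2.23, 2.20 and 1.21. The anterior streak and endoderm list had 1 of 9 genes above 5 CPM, the Nodal inhibitor Lefty1, which was higher by 2.51. The cardiac and pharyngeal list had 1 (Pdgfra, 2.11) and the neurectoderm list 1 (Hes5, 1.71), both higher. At 0 ng/ml, Lefty1, Pdgfra and Hes5 stood at 2.90, 3.43 and 2.94 CPM, so that none of them could be called lower. The other genes of these lists were below 5 CPM at 0 and 12 ng/ml and went in both directions. Sox17, for example, was at 3.36 and 0.636 CPM and Isl1 at 0.704 and 1.41 CPM. The single genes called therefore do not describe their lists.

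Of 4 epiblast genes 1 was higher (Pou5f1 by 1.38), with Dnmt3b at 0.39 and Utf1 at 0.38, and a median of 0.39. In the list of epithelial-mesenchymal transition, 2 of 10 were higher and 2 lower, with Snai1 at 2.01, Cdh1 at -1.22 and Snai2 at -1.08, and a median of -0.20. Of 8 surface ectoderm genes 6 were lower and 0 higher (Tfap2a at -2.72, Krt7 at -2.16 and Wnt6 at -1.56, median -1.03), and of 6 lateral plate and extraembryonic mesoderm genes 5 were lower and 0 higher (Tagln at -3.48, Acta2 at -3.09 and Prrx1 at -2.29, median -1.83). Of 3 hemato-endothelial genes 2 were lower (Runx1 at -2.64 and Gata2 at -2.29) and 1, Lmo2, was higher by 2.01, with a median of -2.29. In the list of primordial germ cells 1 gene, Prdm1, reached 5 CPM and was not called (0.12), and in that of intermediate mesoderm none did. Fewer positive cells and less RNA per cell cannot be told apart in these summed levels.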

How the data were processed

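Single-cell libraries (10x Genomics 3′ v3.1) were analysed for 5 conditions, 1 library each, without replicates. The authors deposited unnormalized UMI counts for every gene and barcode. Per the methods, reads were aligned to mm10 with Cell Ranger, in an earlier release than the file headers name, and the described cell filters had not been applied to the deposited counts. Here, the stated filters were applied (at least 2500 genes, at most 10% mitochondrial UMIs). Doublets were not removed, and the methods describe no such step. Of the identifiers, 32158 matched GENCODE vM21.

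Levels were summed UMIs per 1000000 (CPM), with exact Poisson, conditional and binomial 95% intervals. For bounds, 0 UMIs were set to 3 UMIs and 0 positive cells to 3 cells. The total was 47824660 to 81538748 UMIs per library. Thinning drew 10000 UMIs per cell without replacement (seed 0). Genes were called by size alone (2-fold, at least 5 CPM). The steps were tested on simulated data. Alternatives covered the CPM minimum (1 or 50), cell filters, cell weights, TMM factors (edgeR 4.0.16, R 4.3.3), the deepest 10% of cells, and the thinning. Python 3.11.15, NumPy 2.4.6, SciPy 1.17.1, pandas 2.3.3 and Matplotlib 3.10.9 were used.

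The 8 genes and all lists were chosen with earlier results of these data known. Named besides them were, per list, up to 3 genes with the largest change from 0 to 12 ng/ml among those with at least 5 CPM, the 2 genes nearest in pattern to each factor, and, for factors with at least 30 positive cells at 12 ng/ml, the 3 list genes with the highest co-detection ratio. Lists covered epiblast, streak signals, anterior streak and endoderm, caudal epiblast, presomitic mesoderm, epithelial-mesenchymal transition, cardiac and pharyngeal, hemato-endothelial, intermediate, and lateral plate and extraembryonic mesoderm, surface ectoderm, neurectoderm and primordial germ cells.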

Additional observations from a re-analysis of the deposited data

Results flagged for a closer look

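Barcodes that the filters left out carried a signal at 3 ng/ml FGF2 that stood above that of the retained cells. In the 942 left-out barcodes of this library, Mixl1 was at 65.9 CPM (55.5 to 77.7) from 142 UMIs in 76 barcodes, against 21.96 CPM in the retained cells and 0.427 CPM in the left-out barcodes of the FGFRi library. Lhx1 was at 17.2 CPM (12.1 to 23.7) from 37 UMIs in 31 barcodes, against 8.03 CPM in retained cells and 3.84 CPM in the left-out barcodes of the FGFRi library. T went the other way there, at 146 CPM against 205 CPM. Most of the Mixl1 signal (133 UMIs, at most 12 in a barcode) came from the 910 barcodes with fewer than 2500 genes. In the left-out barcodes at 12 ng/ml Mixl1 was at 18.3 CPM, against 29.1 CPM in retained cells.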

How the results depend on the processing

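No paired analysis was possible because each condition had 1 library. Results were recomputed under each alternative, and the cause of a difference was not tested unless the alternative's construction shows it. The 6 counts of genes called higher stayed within 1.5 times under cell filters, cell weights, TMM factors and without the deepest cells, but single calls did change. From 0 to 0.75 ng/ml, 3 genes were called in place of 4 without the deepest cells or with equal cell weights (Evx1 lost), and 5 with at most 5% mitochondrial UMIs (Tbx6 gained). With a minimum of 50 CPM fewer genes could be called, and the counts from FGFRi to 0, 0 to 0.75, 0.75 to 3, 0 to 12 ng/ml and FGFRi to 12 ng/ml became 0, 1, 1, 1 and 1. With a minimum of 1 CPM these counts were 5, 4, 6, 8 and 8, against 3, 4, 4, 6 and 6 with the minimum of 5 CPM. From 3 to 12 ng/ml every alternative gave 0.

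Shares moved with depth by construction. The share of cells with any of the 8 genes, from the FGFRi to 12 ng/ml, was 2.23%, 16.2%, 35.4%, 60.3% and 68.9% at 5000 UMIs, 8.00%, 37.0%, 63.1%, 85.3% and 92.3% without thinning, and 0.481%, 8.10%, 24.9%, 49.4% and 57.7% where 2 UMIs of a gene were required. The mean number of genes per cell was 0.0415, 0.325, 0.737, 1.33 and 1.55 as reported, 0.0235, 0.203, 0.472, 0.881 and 1.03 at 5000 UMIs and 0.0882, 0.667, 1.29, 2.21 and 2.50 without thinning, and with the FGFRi 0.0315 at no more than 5% mitochondrial UMIs. The median co-detection ratio moved in 1 case, to 3.69 at 0 ng/ml with at most 5% mitochondrial UMIs. Its order over the doses was the same under all alternatives.

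The difference in Tbx6 share between T-positive and T-negative cells depended most on depth, which without thinning also differs between cells. Along the doses it was 13.1, 11.9, 9.41 and 1.41 percentage points as reported, 25.7, 24.3, 30.1 and 25.9 without thinning, and 8.47, 4.69, 1.47 and -5.04 at 5000 UMIs. It was 7.81 at 0.75 ng/ml without the deepest cells and -0.910 at 12 ng/ml with all barcodes, so that no sign can be read at 12 ng/ml after thinning. In cells with 5 or more T UMIs the Tbx6 share at 3 ng/ml was 13.4% in the draw used and 18.8% in another random draw. With at least 4 ectoderm markers, the share of ectoderm-marker cells with any of the 8 genes at 12 ng/ml was 30.6%, against 38.4% with 3. With a minimum of 50 CPM, 3 of the 16 nearest genes stayed. Without the deepest cells, the log2 ratio from FGFRi to 12 ng/ml went from 3.98 to 2.67 for Eomes (from 3.00 to 2.34 from 0 to 12 ng/ml) and from 2.67 to 2.03 for Lhx1, and no gene's ratio called by the rule turned its direction. Few positive cells (0 to 53 of Msgn1 and 2 to 20 of Eomes per library after thinning) limit what can be said of these genes.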

Other observations

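List genes with the lowest co-detection ratios with a factor at 12 ng/ml, chosen after their values had been seen, were mostly of the ectoderm and epiblast lists. Tbx6-positive cells held Krt7, a keratin of simple epithelia, in 0 cells where 8.29 were expected, Nanog in 1 where 12.0 were expected and Utf1 in 5 where 29.8 were expected. Mixl1-positive cells held Dlx5 in 1 cell where 13.1 were expected and Tfap2a in 3 where 17.9 were expected. Mesp1-positive cells held Dlx5 in 0 where 7.23 were expected and Pax2 in 0 where 6.33 were expected, and Lhx1-positive cells held Prdm1 in 1 where 6.56 were expected.

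A few cells carried many UMIs of a single factor, counted without thinning. At 12 ng/ml the highest cell held 78 Mixl1 UMIs of 2059, 40 Mesp1 UMIs of 1128 and 35 Lhx1 UMIs of 951, and 50% of the UMIs lay in 93, 49 and 47 cells. For Evx1 the highest cell held 9 of 2309 UMIs and 50% of them lay in 346 cells.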
